A study of Homo sapiens with 2 samples.

Results

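The genes of human chromosome 16 were compared between SK-LMS-1 and SK-UT-1, 2 human leiomyosarcoma cell lines. Leiomyosarcoma is a malignant tumour with smooth muscle features. Members were chosen by position and by their counts, as the genes of the deposited table with every annotated position on chromosome 16 and at least 10 counts in either line, without symbols beginning with ZNF, CDH or MMP. They numbered 529 of the 13969 genes that reached 10 counts in either line anywhere in the genome, and the table lists 26485 genes. Of 991 genes wholly on chromosome 16, 45 carried the left-out symbols and a further 417 stayed under the count minimum. With the arm boundary at 36.8 Mb, 272 members lay on the short arm, 16p, and 257 on the long arm, 16q.

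Both lines were treated with the solvent DMSO, for a time that the labels do not give, and each was represented by 1 library of total RNA. The series belongs to work on inhibitors of the histone methyltransferase SUV39H2 and of poly(ADP-ribose) polymerase in uterine leiomyosarcoma, and the labels give neither library such an inhibitor. The SK-LMS-1 library held 6906280 counts and that of SK-UT-1 7635850. With 1 library per line no difference has a replicate check and no test was made, so every value below compares these 2 libraries. Of 10 smooth muscle markers, 7 had at least 10 counts in both lines. The myosin heavy chain MYH11, itself encoded on 16p, had 5 counts from SK-LMS-1 and 2 from SK-UT-1, and desmin (DES) had 1 and 26. Others were higher in SK-LMS-1, such as the myosin kinase MYLK (2710 and 80), TAGLN (405 and 43), CNN1 (64 and 20) and ACTG2 (39 and 0), or in SK-UT-1, such as ACTA2 (69 and 435). The leukocyte marker PTPRC, the endothelial marker VWF and the red cell marker HBB had 0 counts in both. None of the 4 haematopoietic, 3 endothelial and 3 red cell markers looked at reached 10 counts in either line. The highest was the endothelial PECAM1, with 8 and 0. Of 5 epithelial markers, 3 had at least 10 counts in both lines. These were the keratins KRT8 (107 and 130), KRT18 (480 and 85) and KRT19 (65 and 155).

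Chromosome 16 is a gene-dense chromosome. Its short arm begins with the alpha globin locus and carries blocks of near-identical duplicated sequence. Its long arm carries the metallothionein cluster, whose small cysteine-rich proteins bind zinc, copper and cadmium and are induced by metals through the factor MTF1, and the FOXF1, FOXC2 and FOXL1 cluster of forkhead transcription factors, which act in mesenchyme and vessel development.

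Promoter windows, from 250 bases before to 50 bases after the annotated start, were taken from RefSeq (GRCh38.p14) and matched 411 members. The first set is shown because metallothionein genes of 1 cluster differed between the lines to unlike degrees, MT2A hardly and MT1X by several fold. Capitals mark the core of the metal response element, searched as TGCACNC or TGCGCNC on both strands. MT2A (chr16:56608334-56608633, + strand) held 8 matches and MT1X (chr16:56682220-56682519, + strand) held 4, and the aligned windows were identical at 194 of 349 columns (55.6%). Of all 27303 RefSeq promoters, 29.3% held at least 1 match and 2.27% at least 3. The shares were 38.9% and 3.38% over the 10207 matched genes with at least 10 counts in either line. Over the 205 matched 16q members, which include MT2A and MT1X, they were 43.4% and 7.32%. Over the 206 matched 16p members they were 44.2% and 1.46%, and over all 411 matched members 43.8% and 4.38%.
MT2A: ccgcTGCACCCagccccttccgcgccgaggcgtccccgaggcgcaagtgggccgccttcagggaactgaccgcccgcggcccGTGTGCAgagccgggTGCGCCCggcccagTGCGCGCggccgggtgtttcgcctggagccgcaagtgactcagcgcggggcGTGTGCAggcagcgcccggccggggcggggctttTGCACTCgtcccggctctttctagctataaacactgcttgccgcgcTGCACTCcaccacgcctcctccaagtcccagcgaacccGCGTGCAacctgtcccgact
MT1X: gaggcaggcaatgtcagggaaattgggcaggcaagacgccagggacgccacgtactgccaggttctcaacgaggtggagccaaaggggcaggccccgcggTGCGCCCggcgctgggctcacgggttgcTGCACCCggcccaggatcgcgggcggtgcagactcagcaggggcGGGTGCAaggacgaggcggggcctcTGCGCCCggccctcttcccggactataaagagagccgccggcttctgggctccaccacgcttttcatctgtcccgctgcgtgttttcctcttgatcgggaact

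The second set shows members that were nearly confined to 1 library, beside an abundant member of both, with every CG in capitals, the dinucleotide at which human DNA is methylated. XYLT1 (chr16:17470911-17471210, - strand) held 19 CG and FENDRR (chr16:86508811-86509110, - strand) held 26; both were higher in SK-LMS-1. NETO2 (chr16:47143896-47144195, - strand) held 54 CG and QPRT (chr16:29678930-29679229, + strand) held 3; both were higher in SK-UT-1. SRRM2 (chr16:2752388-2752687, + strand), the member with the most counts in both, held 38. A high or a low CG number thus occurred among the members read in 1 library. The median number of CG was 31 over the 269 matched members within 2-fold, 22.5 over the 12 past 4-fold toward SK-LMS-1 and 17.5 over the 26 past 4-fold toward SK-UT-1. It was 26 over the 10207 matched genes with at least 10 counts in either line. Matching was uneven, with 12 of 21 members past 4-fold toward SK-LMS-1, 26 of 45 toward SK-UT-1 and 269 of 326 within 2-fold. MT1E, MT1M, FOXF1, FOXC2 and FOXL1 were among those without a window. Methylation was not measured, and a match or a CG number is a description of the sequence.
XYLT1: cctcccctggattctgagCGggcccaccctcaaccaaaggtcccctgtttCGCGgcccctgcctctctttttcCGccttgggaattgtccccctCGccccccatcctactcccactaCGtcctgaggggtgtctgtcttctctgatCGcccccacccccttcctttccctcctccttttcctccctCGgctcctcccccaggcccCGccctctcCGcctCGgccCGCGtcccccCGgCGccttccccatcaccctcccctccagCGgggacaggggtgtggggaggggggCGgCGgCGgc
FENDRR: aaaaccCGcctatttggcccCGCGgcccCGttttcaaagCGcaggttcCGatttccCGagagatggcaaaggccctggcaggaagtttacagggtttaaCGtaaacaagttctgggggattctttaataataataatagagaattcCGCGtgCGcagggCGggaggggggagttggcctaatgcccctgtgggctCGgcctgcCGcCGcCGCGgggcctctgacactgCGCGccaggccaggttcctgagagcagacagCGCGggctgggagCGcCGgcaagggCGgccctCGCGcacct
NETO2: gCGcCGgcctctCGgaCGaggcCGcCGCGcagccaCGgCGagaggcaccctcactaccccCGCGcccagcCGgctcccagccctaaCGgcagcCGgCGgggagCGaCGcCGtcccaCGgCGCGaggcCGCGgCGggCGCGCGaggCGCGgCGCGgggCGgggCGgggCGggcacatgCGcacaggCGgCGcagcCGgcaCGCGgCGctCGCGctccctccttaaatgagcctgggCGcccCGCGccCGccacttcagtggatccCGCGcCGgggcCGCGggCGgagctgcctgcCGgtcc
QPRT: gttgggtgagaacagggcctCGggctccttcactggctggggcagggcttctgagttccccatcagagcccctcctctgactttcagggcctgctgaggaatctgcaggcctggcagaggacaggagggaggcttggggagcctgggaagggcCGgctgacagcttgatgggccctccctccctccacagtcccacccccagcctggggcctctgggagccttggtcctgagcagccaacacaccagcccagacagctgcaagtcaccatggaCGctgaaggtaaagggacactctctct
SRRM2: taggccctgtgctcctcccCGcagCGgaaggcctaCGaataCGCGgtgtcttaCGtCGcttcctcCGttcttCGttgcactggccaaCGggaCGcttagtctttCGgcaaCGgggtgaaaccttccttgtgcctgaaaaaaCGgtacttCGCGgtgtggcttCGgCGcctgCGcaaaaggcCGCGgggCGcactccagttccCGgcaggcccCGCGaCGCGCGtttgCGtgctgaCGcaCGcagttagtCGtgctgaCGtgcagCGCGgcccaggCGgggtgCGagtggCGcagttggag

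Most chromosome 16 genes had a lower level in SK-LMS-1 than in SK-UT-1. Levels are CPM, the count of a gene relative to the size of its library, after scaling of library sizes by TMM (a trimmed mean of the log ratios). Ratios divide the SK-LMS-1 level by that of SK-UT-1 and are given as log2, with counts below 3 raised to 3. The median log2 ratio was -0.59 over the 529 members and -0.01 over all 13969 genes. The median member of SK-LMS-1 therefore stood at 66.2% of its SK-UT-1 level. In all, 392 members (74.1%) lay below the median of all genes, where the share over all genes is 50% by construction. Members took 1.98% of the counts of SK-LMS-1 and 3.21% of those of SK-UT-1. In bulk RNA, fewer cells that express a gene and less RNA per cell cannot be told apart. The choice of chromosome 16 was made with these libraries already examined, so the shift is a description.

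A gene is called past 2-fold toward a line when its level there was at least 2 times that of the other line. There were 160 members (30.2%) past 2-fold toward SK-UT-1 and 43 (8.13%) toward SK-LMS-1. Over all genes the same shares were 18.3% and 21.1%, or 39.5% in either direction. Past 4-fold were 45 members (8.51%) toward SK-UT-1 (all genes 7.49%) and 21 (3.97%) toward SK-LMS-1 (all genes 11.7%). Of all genes 19.2% were past 4-fold in either direction. The middle 50% of members ran from -1.11 to 0.03, against -0.70 to 0.80 over all genes. The plot of ratio distributions shows a displaced main peak rather than a longer lower tail.

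**Figure D1:**
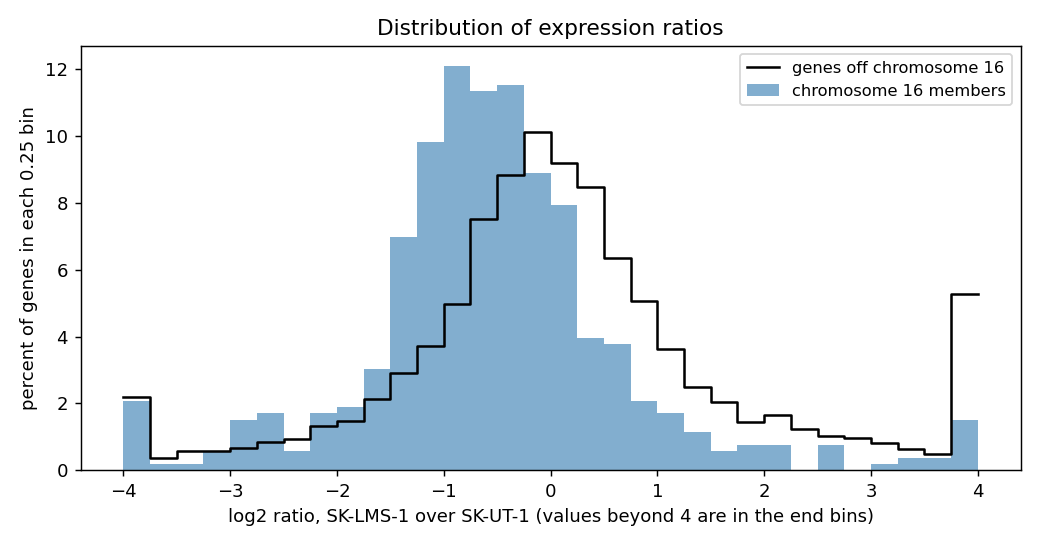
Percent of genes (vertical axis) in each bin of log2 ratio, SK-LMS-1 over SK-UT-1 (horizontal axis), for the 529 chromosome 16 members (bars) and for genes off chromosome 16 (line). The bars are displaced to the left, with a member median of -0.59.

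A minimum of 10 counts can be met through 1 line alone, and such a gene is then on its higher side there, so counts and medians over all members include this selection. There were 447 members at 10 counts or more in both lines, 61 that met it in SK-UT-1 alone and 21 that met it in SK-LMS-1 alone. Over the 447 the median log2 ratio was -0.49. Over the 267 members with at least 100 counts in both lines it was -0.49 as well, with 55 past 2-fold toward SK-UT-1 and 8 toward SK-LMS-1, beside a median of 0.02 over the 7354 such genes of the whole table, of which 7.19% were past 2-fold toward SK-UT-1 and 11.23% toward SK-LMS-1. Just inside the minimum stood 6 members with 10 counts in the higher line (RAB26, SRRM2-AS1, LINC01569, C16orf71, LOC100506083 and LDHD). Just outside stood 10 genes with 9, among them SYNGR3, PPL, DOC2A, ESRP2 and NECAB2.

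The displacement was similar on both arms. On 16p the median log2 ratio was -0.62, with 85 members past 2-fold toward SK-UT-1 and 20 toward SK-LMS-1. On 16q it was -0.54, with 75 and 23. The difference of the medians, 16p minus 16q, was -0.08. Members of 16p had a median transcript GC content of 57.4% and those of 16q 53.3%, and when genes were put into 10 classes of GC content and each class was centred on its own median over all genes the difference turned to 0.01. It was also near 0 with at least 10 counts in both lines (-0.003) and with at least 100 in both (-0.016). The last 16p member before the centromere was the pseudogene CLUHP3, with 5 counts from SK-LMS-1 and 45 from SK-UT-1. The first 16q member was SHCBP1, which encodes an SHC1-binding protein, with 536 and 1064.

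**Figure D2:**
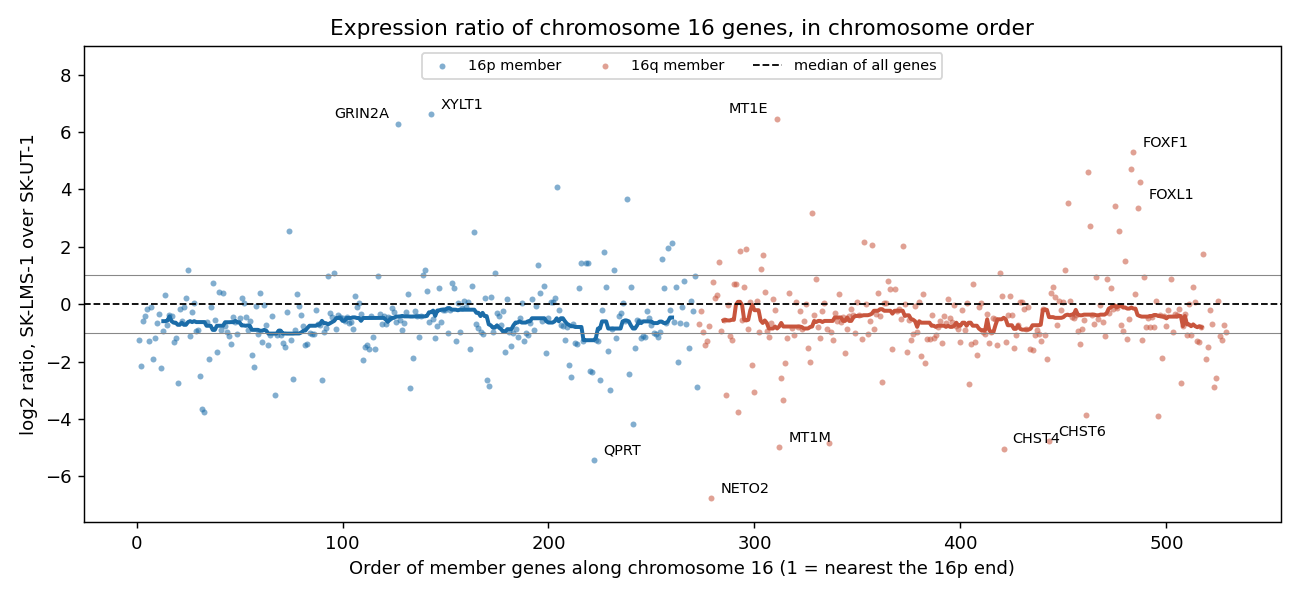
Log2 ratio, SK-LMS-1 over SK-UT-1 (vertical axis), of each of the 529 members in their order along the chromosome (horizontal axis), 16p blue and 16q red, with a running median of 25 members as a line in each arm. Thin grey lines mark 2-fold and the dashed line the median of all genes; both running medians stay at or below the dashed line for most of their length, while single genes reach past 6 in either direction.

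In 5 Mb windows with at least 10 members, 15 of 15 medians lay below the median of all genes. The lowest was -0.80, over the 30 members between 70 and 75 Mb, and the highest was -0.05, over the 16 between 75 and 80 Mb. The window with the most genes, from 0 to 5 Mb of 16p, held 116 members with a median of -0.73, of which 43 were past 2-fold toward SK-UT-1 and 3 toward SK-LMS-1. Between 15 and 20 Mb the 13 members had a median of -0.21. In the low window at 70 to 75 Mb, the splicing factor subunit SF3B3 was the most abundant member, at 281 CPM for SK-LMS-1 and 406 CPM for SK-UT-1. There VAC14, a scaffold of the lipid kinase that makes endosomal PI(3,5)P2, went the other way, at 108 and 50.8 CPM.

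Along 16p the most abundant members of several other windows were higher in SK-UT-1. The deubiquitinase USP7 had 1079 counts from SK-LMS-1 and 1613 from SK-UT-1, the translation termination factor GSPT1 had 2075 and 3385, and ARL6IP1, which shapes the endoplasmic reticulum, had 1852 and 5212. RBBP6 had 854 and 2129, and XPO6, the nuclear exporter of actin, had 1029 and 1776. Among the members with the largest ratio of their window were the clathrin adaptor GGA2 (184 and 625) and the methyltransferase EEF2KMT (107 and 210) toward SK-UT-1. Toward SK-LMS-1 were C16orf52 (232 and 135), HSD3B7 of bile acid synthesis (39 and 11) and the stress-induced NUPR1 (41 and 1, a ratio of 50.4 with a counting interval of 8.55 to 2037).

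Along 16q the retromer subunit VPS35 had 1838 counts from SK-LMS-1 and 2658 from SK-UT-1, and the lysyl-tRNA synthetase KARS had 1156 and 2337. NFAT5, the factor of the response to osmotic stress, had 2059 and 2449, with a counting interval of the ratio (0.973 to 1.10) that includes equal levels. Within the same limit of level and gene type, 3 genes with the largest ratio toward SK-LMS-1 of their window were under 2-fold. These were ITFG1 (637 and 456), the ubiquitin ligase WWP2 (300 and 226) and GABARAPL2 of autophagy (264 and 215). Over all members, their windows held 1, 3 and 2 genes past 2-fold toward SK-LMS-1, in the same order. CYBA, the p22phox subunit of NADPH oxidases, had 7 and 129, or 15.003-fold higher for SK-UT-1 (7.08 to 38.1).

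Of 528 adjacent pairs, 332 (62.9%) lay on the same side of the median of all genes. With 74.1% of members below it, most pairs would share a side in random order as well, and long runs below it would occur. The rank correlation between the ratios of adjacent members was 0.11. The longest runs below that median held 14 genes, from AMDHD2 to PKMYT1 at 16p13.3 and from CORO1A to BCL7C at 16p11.2. A further run of 13 genes went from POLR3K, the first member of the chromosome, to CAPN15. The longest run above it held 5 genes, FENDRR, FOXF1, MTHFSD, FOXC2 and FOXL1, over 107 kb of 16q24.1.

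Genes that the membership rule left out were displaced to the same side. Of 74 such genes with at least 10 counts, 33 were past 2-fold toward SK-UT-1 and 7 toward SK-LMS-1, and the median was -0.87. They comprised 30 ZNF symbols with a median of -0.93, 6 CDH or MMP symbols with a median of 1.70, and 38 genes annotated on chromosome 16 and on another sequence, with a median of -0.82. The last group holds most of 16p13.11, such as the drug efflux transporter ABCC1 (570 counts from SK-LMS-1 and 1277 from SK-UT-1) and NDE1, a protein of the centrosome (127 and 531).

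Among the 41 chromosome arms with at least 20 genes, 16p had the second lowest median and 16q the fourth lowest. The arm 1q was lower, at -0.69, and 22q stood between the arms of chromosome 16, at -0.55. At the other end stood Xq, at 1.05. Taken as whole chromosomes, chromosome 16 had the lowest median (-0.59), followed by chromosome 22 (-0.55). Arm boundaries off chromosome 16 used approximate centromere positions.

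**Figure D3:**
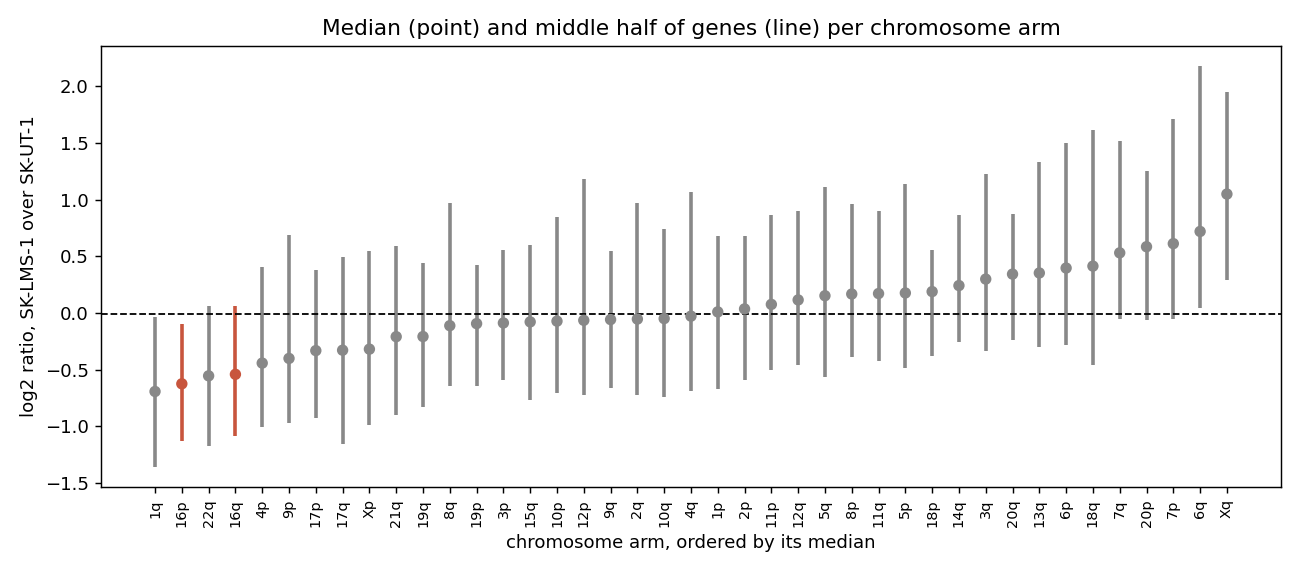
Median (points) and middle 50% of genes (lines) of the log2 ratio, SK-LMS-1 over SK-UT-1 (vertical axis), for each of 41 chromosome arms ordered by median (horizontal axis), with the median of all genes dashed. The arms of chromosome 16 are in red, at -0.62 for 16p and -0.54 for 16q, beside 1q at -0.69 and 22q at -0.55.

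Ratios over the whole table moved with the GC content of the transcripts, and chromosome 16 is GC-rich. Genes off chromosome 16 had a median log2 ratio of 0.20 in the lowest of 5 equal classes of GC content and -0.26 in the highest. Members had -0.41 in the lowest class (26 members) and -0.67 in the highest (192 members). In each of the 5 classes the members' median was below that of the other genes. With each of 10 GC classes centred on its median, the members' median was -0.47. Transcript GC content was available for 504 members (95.3%).

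In each of 5 equal classes of mean CPM the members' median was likewise below that of the other genes. In the highest class, 74 members had a median of -0.55 beside 0.06 for genes off chromosome 16, and in the lowest class 110 members had -0.98 beside -0.29. Protein-coding members, 489 in number, had a median of -0.57, and the 14 annotated long non-coding RNAs had -1.05.

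**Figure D4:**
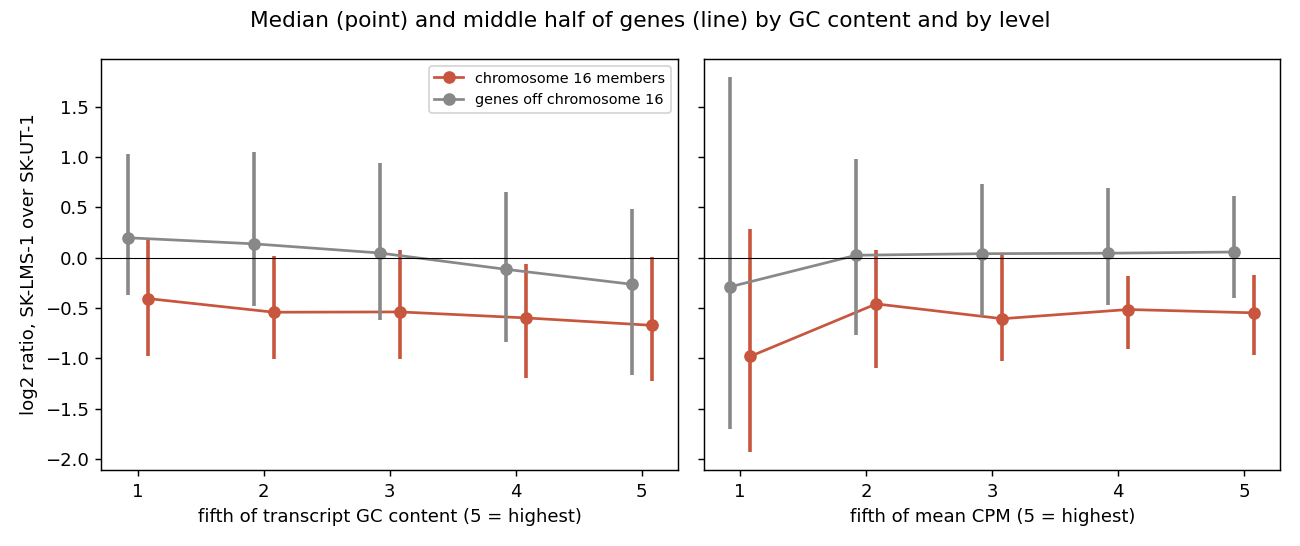
Median (points) and middle 50% of genes (lines) of the log2 ratio, SK-LMS-1 over SK-UT-1 (vertical axis), in 5 equal classes of transcript GC content (left panel) and of mean CPM (right panel), for chromosome 16 members in red and genes off chromosome 16 in grey. Members lie below the other genes in every class, and in the GC-richest class the medians are -0.67 and -0.26.

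A few members ran strongly against the displacement. XYLT1, the xylosyltransferase that starts glycosaminoglycan chains on proteoglycans, lies at chr16:17102324-17470881 of hg38, the build of all gene positions given here, and had 400 counts from SK-LMS-1 and 5 from SK-UT-1, a 98.3-fold difference (95% counting interval 41.8 to 304). Counting intervals are exact and cover counting error only. GRIN2A, a subunit of the NMDA glutamate receptor (chr16:9753405-10182754), had 191 and 0 counts, at least 78.2-fold higher for SK-LMS-1 against a floor of 3 counts in the library at 0. Both lie on 16p and both were close to absent from SK-UT-1. A fold given here as at least a value takes the count above 0 as it stands, without its counting error.

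CRISPLD2, a secreted glycoprotein, had 228 counts from SK-LMS-1 and 26 from SK-UT-1, which is 10.8-fold (7.16 to 16.9). ABCA3, a lipid transporter of lamellar bodies, had 209 and 44, or 5.84-fold (4.2 to 8.27). AKTIP, a factor of vesicle trafficking and telomere replication, had 171 and 55, or 3.82-fold (2.80 to 5.27). These 3 genes were read in both lines.

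CYLD, a deubiquitinase that restrains NF-kappaB signalling and is a tumour suppressor, had 965 counts from SK-LMS-1 and 326 from SK-UT-1, which is 3.64-fold higher for SK-LMS-1 (3.20 to 4.14). MVP, the major vault protein, had 390 and 137, or 3.50-fold (2.87 to 4.28). NSMCE1, a subunit of the SMC5/6 complex, had 395 and 190, or 2.55-fold (2.14 to 3.05). Together with FOXL1 and MT1E these genes made up the 10 largest ratios toward SK-LMS-1 at 20 CPM or more.

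NETO2, an auxiliary subunit of kainate receptors (chr16:47081520-47144025), gave the largest ratio toward SK-UT-1 on the scale with counts below 3 raised to 3, with 0 counts from SK-LMS-1 and 398 from SK-UT-1, at least 108-fold higher for SK-UT-1. NDRG4 had 8 and 281 counts, or 28.6-fold (14.3 to 66.9). CHST6, the corneal keratan sulfate sulfotransferase, had 12 and 402, or 27.3-fold (15.4 to 53.2). CHST4, another N-acetylglucosamine sulfotransferase of 16q, had 0 and 121, at least 32.8-fold. These 4 genes lie on 16q, and none had more than 12 counts in SK-LMS-1.

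At higher levels in both lines, NQO1, the quinone reductase that is a standard target of NRF2, had 282 counts from SK-LMS-1 and 2367 from SK-UT-1, or 6.83-fold higher for SK-UT-1 (6.04 to 7.76). TUBB3, the beta-tubulin isotype typical of neurons, had 290 and 2136, or 6.0-fold (5.30 to 6.80). LITAF, an endosomal membrane protein, had 44 and 410, or 7.59-fold (5.55 to 10.6). NME4, the mitochondrial nucleoside diphosphate kinase, had 106 and 614, or 4.72-fold (3.83 to 5.85). Each of these counting intervals lies wholly beyond 2-fold.

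Counts of 0 were found for 17 of the 529 members in SK-LMS-1 (all genes 3.22%) and for 7 of the 529 in SK-UT-1 (all genes 3.59%). The share of members at 0 in SK-LMS-1 was thus near that of all genes, and the share at 0 in SK-UT-1 was below it. Those at 0 in SK-LMS-1 were NETO2, CHST4, MT1M, NKD1, CACNA1H, SOX8, MT1F, CBLN1, RHBDL1, CBFA2T3, KREMEN2, OTOA, MT1A, CTRL, GSG1L, SEC14L5 and C16orf71, with 10 to 398 counts in SK-UT-1. Those at 0 in SK-UT-1 were MT1E, GRIN2A, FOXF1, FENDRR, SDR42E1, FOXC2 and HSD17B2, with 16 to 216 counts in SK-LMS-1. A count of 0 allows a level of up to 0.458 CPM for SK-LMS-1 and 0.373 CPM for SK-UT-1, the value of 3 counts.

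The metallothionein cluster at 16q13 differed gene by gene within 75.6 kb. MT2A, the main human metallothionein, had 276 counts from SK-LMS-1 and 299 from SK-UT-1, or 42.1 and 37.2 CPM, with a counting interval of the ratio (0.959 to 1.34) that includes equal levels. MT1E (chr16:56625673-56627113) had 216 counts from SK-LMS-1 and 0 from SK-UT-1, at least 88.4-fold higher for SK-LMS-1. MT1M (chr16:56632622-56633986), which starts 6.95 kb further on, had 0 and 117, at least 31.8-fold higher for SK-UT-1. These neighbours were thus each read in a different line.

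MT1F had 0 counts from SK-LMS-1 and 37 from SK-UT-1 (at least 10.04-fold), and MT1A had 0 and 22 (at least 5.97-fold). MT1X had 46 and 233, or 4.12-fold higher for SK-UT-1 (2.99 to 5.79). MT1L, annotated as a pseudogene in many sources, had 38 and 54 (interval 0.750 to 1.80 for SK-UT-1 over SK-LMS-1). Of the 16 listed metallothionein symbols, 7 were members, 4 of them past 2-fold toward SK-UT-1 and 1 toward SK-LMS-1, and the median was -2.04. The shares are 57.1% and 14.3%, beside 30.2% and 8.13% of all members and 18.3% and 21.1% of all genes. With at least 10 counts in both lines the median was -0.21, since the members at 0 in a line met the minimum through the other. The other 9 (MT1B, MT1DP, MT1G, MT1H, MT1HL1, MT1IP, MT1JP, MT3 and MT4) had 0 counts in both lines except MT1G, with 1 in SK-LMS-1. Metallothionein copies are alike in sequence, so the split of fragments among them is uncertain.

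The forkhead cluster at 16q24.1 was read almost wholly in SK-LMS-1. FOXF1, a mesenchymal factor of lung and gut (chr16:86510527-86514464), had 96 counts from SK-LMS-1 and 0 from SK-UT-1, at least 39.3-fold. FENDRR, the long non-coding RNA that starts on the opposite strand 1.67 kb from FOXF1, had 64 and 0, at least 26.2-fold. FOXC2, a factor of lymphatic vessels, had 25 and 0, at least 10.2-fold. FOXL1 had 247 and 16, or 18.96-fold (11.5 to 33.7). All 4 were higher in SK-LMS-1.

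Genes beside the forkhead factors did not share this pattern. MTHFSD, which lies between FOXF1 and FOXC2, had 63 counts from SK-LMS-1 and 60 from SK-UT-1 (interval 0.891 to 1.87). EMC8, a subunit of the ER membrane insertase, had 126 and 355, or 2.29-fold higher for SK-UT-1 (1.87 to 2.83). COX4I1, a subunit of cytochrome c oxidase, had 530 and 938, or 1.44-fold (1.29 to 1.61). The median of the 9 measured genes of this list was 0.37. It lay above the median of all genes, whereas 16 other list medians lay below it. It turned to -0.62 with at least 10 counts in both lines, since FOXF1, FENDRR and FOXC2 met the minimum through SK-LMS-1 alone.

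**Figure D5:**
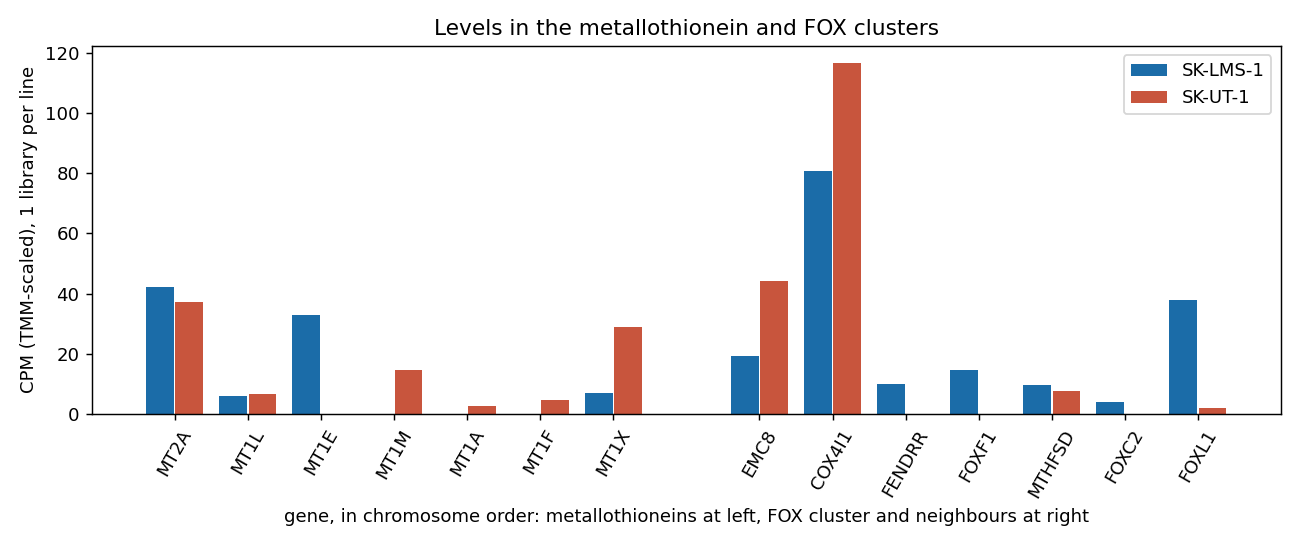
CPM after TMM scaling (vertical axis, from 0) in SK-LMS-1 (blue) and SK-UT-1 (red) for the metallothionein members and for the forkhead cluster with its neighbours (horizontal axis, chromosome order), 1 library per line and so no error bar. MT1E (216 and 0 counts) and MT1M (0 and 117) stand in opposite lines, and FENDRR, FOXF1, FOXC2 and FOXL1 stand in SK-LMS-1.

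At 16q12, the homeobox factor IRX3 had 24 counts from SK-LMS-1 and 247 from SK-UT-1, or 8.38-fold higher for SK-UT-1 (5.50 to 13.33). AKTIP of the same region was higher in SK-LMS-1, by 3.82-fold. The remaining 6 measured genes there lay within 2-fold, and the median of the 8 was -0.24. The most abundant was the chromatin remodeller CHD9, at 176 CPM for SK-LMS-1 and 261 CPM for SK-UT-1.

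The alpha globin genes were at or near 0 counts, and their neighbours were lower in SK-LMS-1. HBA1, HBA2, HBM and HBZ had 0 counts in both lines and HBQ1 had 1 in SK-UT-1. All 10 measured neighbours lay below the median of all genes, with a list median of -0.91. Past 2-fold toward SK-UT-1 were 5 of them (50%), beside 30.2% of all members and 18.3% of all genes. SNRNP25, a protein of the minor spliceosome, had 30 counts from SK-LMS-1 and 164 from SK-UT-1, or 4.45-fold (3.002 to 6.81). LUC7L, a splicing factor, had 100 and 301, or 2.45-fold (1.95 to 3.10). AXIN1, the scaffold of beta-catenin destruction, had 75 and 209, or 2.27-fold (1.73 to 2.995).

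In the 16p11.2 interval of recurrent deletion and duplication, 9 of 20 measured genes were past 2-fold toward SK-UT-1 and 3 toward SK-LMS-1, with a median of -0.72. Toward SK-UT-1 this is 45%, beside 30.2% of all members and 18.3% of all genes. Toward SK-LMS-1 it is 15%, beside 8.13% and 21.1%. The median was -0.35 with at least 10 counts in both lines. QPRT, an enzyme of NAD synthesis from quinolinate, had 1 count from SK-LMS-1 and 158 from SK-UT-1, a log2 ratio of -5.42 with the count of 1 raised to 3. Taken as it stands, that count gives a level 129-fold higher for SK-UT-1, with a counting interval of 22.7 to 5112. CORO1A, the coronin of leukocytes, had 3 and 67, or 18.2-fold higher for SK-UT-1 (5.96 to 90.4). Of its exon bases 11.23% are shared with another gene on the same strand. ASPHD1 had 5 and 49. The aldolase ALDOA was nearly equal, at 229 CPM for SK-LMS-1 and 224 CPM for SK-UT-1. MVP and TMEM219 (63 and 34 counts) were higher in SK-LMS-1, as was YPEL3 (31 and 3 counts).

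The list drawn up for mitosis and the centrosome had the lowest median of the functional lists, at -1.11 over 17 members. Of these, 9 (52.9%) were past 2-fold toward SK-UT-1 and 0 toward SK-LMS-1. The 9 include genes that are not established mitotic or centrosomal factors, such as SPATA33 and CENPBD1, so the share describes the list. Past 2-fold toward SK-UT-1 were 18.3% of all genes and 30.2% of all members. Toward SK-LMS-1 they were 21.1% and 8.13%, and the list counts below stand beside these shares. PLK1, the kinase of mitotic entry and spindle assembly, had 631 counts from SK-LMS-1 and 1865 from SK-UT-1, or 2.41-fold (2.197 to 2.64). CCNF, the F-box protein cyclin F, had 302 and 879, or 2.37-fold (2.08 to 2.71). The kinetochore protein CENPT had 175 and 512, or 2.38-fold (2.002 to 2.84). TUBB3, the kinase CDK10 (45 and 138 counts) and SPATA33 (38 and 114) belong to the same list.

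In the list drawn up for DNA repair, replication and telomeres, 4 of 23 measured genes were past 2-fold toward SK-UT-1 and 0 toward SK-LMS-1, with a median of -0.51. The list also holds genes outside its title, such as NUDT21, POLR3E and FBXL16, all within 2-fold. The 4 are 17.4% of the list, near the 18.3% of all genes. RFWD3, a ubiquitin ligase of interstrand crosslink repair, had 482 counts from SK-LMS-1 and 1735 from SK-UT-1, or 2.93-fold (2.65 to 3.25). FANCA, of the Fanconi anaemia core complex, had 166 and 573, or 2.81-fold (2.36 to 3.36). PALB2, the partner of BRCA2, had 224 and 380, or 1.38-fold (1.17 to 1.64). The glycosylase NTHL1 had 19 and 58, or 2.48-fold (1.46 to 4.42). NUDT21, a subunit of the cleavage factor that selects poly(A) sites, was the most abundant of the list, with 1485 and 3493.

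Chromatin and transcription regulators numbered 37 measured members, with 6 past 2-fold toward SK-UT-1, 0 toward SK-LMS-1 and a median of -0.43. The 6 are 16.2% of the list, near the 18.3% of all genes. CREBBP, a histone acetyltransferase, had 1041 counts from SK-LMS-1 and 1971 from SK-UT-1, or 1.54-fold (1.43 to 1.66). MAZ, a zinc finger factor, had 413 and 1229, or 2.42-fold (2.16 to 2.71). The arginine methyltransferase PRMT7 had 60 and 190, and the calcium-regulated factor NFATC3 had 456 and 1269. CTCF, the factor of chromatin loops, had 467 and 647 (interval 0.9998 to 1.27 for SK-UT-1 over SK-LMS-1). CBFB, the partner of RUNX factors, had 647 and 788 (interval 0.908 to 1.12 for SK-LMS-1 over SK-UT-1).

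The tumour suppressor and growth control list had 24 measured members, 6 past 2-fold toward SK-UT-1 and 2 toward SK-LMS-1, with a median of -0.42. TSC2, which restrains mTORC1, was at 56.9 CPM for SK-LMS-1 and 57.6 CPM for SK-UT-1, and no difference was detectable at this depth. NKD1, an antagonist of WNT signalling, had 0 and 50 counts, at least 13.6-fold higher for SK-UT-1. PLCG2, a phospholipase of immune receptor signalling, had 5 and 90, or 14.6-fold (6.05 to 46.2). HSD17B2, which inactivates estradiol, had 16 and 0, at least 6.55-fold higher for SK-LMS-1.

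Genes of the ribosome, translation and protein turnover mostly differed by less than 2-fold. Of 26 measured, 25 lay within 2-fold, CYLD was the exception, and the median was -0.26. RPS2, the most abundant chromosome 16 gene per kilobase of exon in both libraries, stood at 416 CPM per kb in SK-LMS-1 and 624 CPM per kb in SK-UT-1. RPS15A followed, at 376 and 532 CPM per kb. RPL13 was at 197 CPM in both lines. Among the genes with the most reads, the splicing scaffold SRRM2 had 4460 and 11310 counts, or 2.06-fold higher for SK-UT-1 (1.99 to 2.14). CNOT1, the scaffold of the CCR4-NOT deadenylase, had 2496 and 7348, or 2.40-fold (2.29 to 2.51).

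The list of mainly nuclear-encoded mitochondrial proteins had a median of -0.66 over 27 measured members. Of these, 6 (22.2%, all genes 18.3%) were past 2-fold toward SK-UT-1 and 0 toward SK-LMS-1. It also holds AARS, COG4 and MTHFSD, all within 2-fold, so the values describe the list. ECI1, an enzyme of fatty acid oxidation, had 98 counts from SK-LMS-1 and 336 from SK-UT-1, or 2.79-fold (2.22 to 3.53). NDUFAB1, the mitochondrial acyl carrier protein, had 86 and 231, or 2.19-fold (1.70 to 2.83). GOT2, the mitochondrial aspartate aminotransferase, had 1221 and 2248, or 1.499-fold (1.397 to 1.61).

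Metabolic enzymes had a median of -0.59 over 36 measured members, with 9 past 2-fold toward SK-UT-1 and 3 toward SK-LMS-1. Beside QPRT and NQO1, the cholesterol-esterifying enzyme LCAT had 10 counts from SK-LMS-1 and 51 from SK-UT-1, or 4.15-fold (2.08 to 9.17), with 12.2% of its exon bases shared with another gene on the same strand. CPPED1, a phosphatase, had 566 and 305, or 2.28-fold higher for SK-LMS-1 (1.98 to 2.63). Of the carboxylesterases, CES2 had 219 and 347 counts and CES3 had 16 and 46.

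Transporters and ion channels were divided between the lines, with 3 of 19 past 2-fold toward SK-LMS-1, 5 toward SK-UT-1 and a median of -0.19. With at least 10 counts in both lines that median turned to 0.35. CACNA1H, a T-type calcium channel, had 0 counts from SK-LMS-1 and 50 from SK-UT-1, at least 13.6-fold. The potassium chloride cotransporter SLC12A4 had 181 and 511, or 2.30-fold (1.94 to 2.74). The mechanosensitive channel PIEZO1 was the most abundant, with 1125 and 1574.

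Of 34 listed cytokine, receptor and immune genes 23 stayed under the count minimum, among them ITGAL, CIITA and NOD2. The 11 measured had a median of -0.88, with 5 past 2-fold toward SK-UT-1 and 1, the cytokine IL32 (26 and 15 counts), toward SK-LMS-1. The most abundant was CMTM4, with 346 and 562. Adhesion, matrix and cytoskeleton genes had a median of -0.54 over 17 measured members, with 6 past 2-fold toward SK-UT-1 and 4 toward SK-LMS-1, and of -0.28 with at least 10 counts in both lines. ADGRG1, an adhesion receptor, had 37 counts from SK-LMS-1 and 5 from SK-UT-1, or 9.09-fold (3.56 to 29.6). SEZ6L2 had 162 and 611, or 3.07-fold higher for SK-UT-1 (2.58 to 3.67). COTL1, a coactosin-like actin-binding protein, had 2136 and 3260.

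Genes of the 16p segmental duplications had a median of -0.86 over 20 measured members, with 9 past 2-fold toward SK-UT-1 and 3 toward SK-LMS-1. The kinase SMG1, with several partial copies on 16p, had 2215 counts from SK-LMS-1 and 4580 from SK-UT-1, or 1.68-fold (1.6 to 1.77). Counts of such copies are uncertain, since the counting can split or lose their fragments. Without this list the difference between the member median and that of all genes was -0.57, beside -0.59 with it.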

How the data were processed

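RNA-seq counts per gene were used as deposited. Per the file headers, the authors made them with featureCounts 2.0.1 on hg38, counting read pairs over exons by gene name, with strand setting 1 and with a fragment that overlaps several genes counted for each. No source used here names the aligner. Total RNA libraries came from a stranded SMARTer kit, per the labels' protocols. The table holds 2 further count columns that match neither sample and were not used.

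CPM were computed with TMM scaling in edgeR 4.0.16 (R 4.3.3), and ratios with counts below 3 raised to 3. Intervals are exact conditional binomial (Clopper-Pearson) at 95%. Reads were amplified without molecular identifiers and can repeat a molecule, so intervals and floors cover counting error only. No test was possible with 1 library per line. A fold against 0 counts used 3 counts in that library and the other count as it stands, so it is not an end of a counting interval. The calculation was tested on simulated data.

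Members and gene lists were chosen with earlier results of these data known. Some lists hold genes outside their title, such as VAC14 among transporters and ion channels. Genes were named by size of ratio (the 10 largest each way at 20 CPM or more), as the most abundant or most different of each list (at 5 CPM or more) and window, at the arm boundary and at the count minimum. All metallothionein and alpha globin genes and a set of single genes (among them MYH11, CREBBP, TSC2, CTCF and PLK1) were added, of which 1 is not reported here. FOXC2, HSD17B2, IL32, YPEL3, CCNF, CENPT, RPL13, RPS15A, NDE1 and the genes at 0 counts were chosen after their values were seen. Among members, 13 share more than 20% of their exon bases with another gene on the same strand and 7 lie at several loci. Alternatives changed the scaling, filters, floor, size rule, windows and gene sets.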

Additional observations from a re-analysis of the deposited data

How the results depend on the processing

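No paired analysis was possible because each line has 1 library, and for the same reason no replicate could be left out. No difference past 2-fold among the named genes changed direction. The member median stayed below that of all genes under every alternative that gave it. The median of all genes moved from -0.01 to -0.16 with library totals and to -0.14 with edgeR's upper quartile, and the members moved with it, to -0.75 (16p -0.78) and -0.73 (16p -0.76). The difference of -0.59 between them is the same under every scaling by construction, since a scaling shifts every log2 ratio by the same amount. The scalings are therefore no check of that difference. Centring 10 classes of GC content, an alternative added after seeing the data, gave a member median, and so a difference, of -0.47 (16p -0.47), and turned 16p minus 16q to 0.01. With at least 1 count in either line the medians were -0.36, -0.38 (16p) and -0.33 (16q), while all genes stood at 0.24. The highest window median turned above 0 with at least 10 counts in both lines (0.03) and with GC centring (0.14), and 14 of 15 windows lay below all genes under both of these, with at least 50 counts in either line and with the deeper library thinned.

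The count past 2-fold toward SK-UT-1 was 205 with library totals, 197 with upper quartile and 135 with GC centring, beside 160. Counts also followed the filter and the size rule by construction. Toward SK-LMS-1 and SK-UT-1, in this order, were 22 and 103 members with at least 10 counts in both lines (16p 12 and 49, 16q 10 in SK-LMS-1). With at least 50 counts in either line 21 were higher in SK-LMS-1 (16p 9, 16q 12), and 54 on 16p in SK-UT-1. With at least 100 counts in both lines, added after seeing the data, they were 8 and 55 (16p 5 and 23, 16q 3 and 32). The 1.5-fold rule gave 66 and 266 (16p 31 and 143, 16q 35 and 123), the 4-fold rule 21 and 45 (16p 7 and 24, 16q 14 and 21), and whole intervals beyond 2-fold 22 and 74 (16p 9 and 34, 16q 13 and 40). Of 388 alternative values for 97 named genes 41 moved beyond their counting interval, with library totals or upper quartile scaling. Depth limits the genes near 10 counts, which equal 1.53 CPM for SK-LMS-1 and 1.24 CPM for SK-UT-1.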
